A study of Sus scrofa domesticus with 2 samples.

Results

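The mural-like cells described here are 282 of the 335 collagen-high cells, and of the 5682 cells within the gene and mitochondrial limits, in a library of cultured pig lung endothelial cells. They were chosen by their counts: COL1A1 plus COL1A2 of at least 20 UMIs, and ACTA2 plus ACTG2 UMIs equal to or above IGFBP5 plus WT1 UMIs. They were compared as a group with the other 53 collagen-high cells, in which IGFBP5 plus WT1 led, and with 5169 endothelial cells selected on PECAM1 of 3 or more UMIs and collagen I of 2 or fewer. The name mural-like rests on the markers PDGFRB, CSPG4, ACTA2, ACTG2 and COL6A1. Levels below are CPM, the UMIs of a gene summed over a group and scaled to 1000000 UMIs of that group, listed in the order mural-like, other collagen-high and endothelial.

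The series holds 7131 deposited cells from 2 cultures of domestic pig (Sus scrofa domesticus), 1 from a lung lobe and 1 from the aorta near the lung. Tissue was perfused or filled with collagenase and DNase I, and the freed cells were cultured with serum and were not sorted. Each culture gave 1 single-cell library, so no animal or culture was repeated and cells are not replicates. The labels give the tissue of each sample and no sex, age or passage of the cultures.

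In intact vessels, pericytes sit inside the basement membrane of capillaries and smooth muscle cells wrap arteries and veins. PDGFRB is the receptor through which endothelial PDGF-B keeps both in place, CSPG4 is a proteoglycan on their surface, ACTA2 and ACTG2 are contractile actins, and COL6A1 is a chain of the collagen VI microfibrils around them. WT1 is a transcription factor of mesothelium and IGFBP5 a secreted binder of insulin-like growth factors.

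The lung library held 5946 cells and 57213236 UMIs, with a median of 9326 UMIs and 2871 genes per cell. Collagen-high cells were 5.90% of the cells within the limits (5.30% to 6.54%), and the mural-like cells 4.96% (4.41% to 5.56%). Among collagen-high cells the mural-like share was 84.2% (79.8% to 87.9%). These intervals, and all others given, cover counting error only. The 3 groups were of similar depth: medians of 10658.5, 11271 and 9456 UMIs, and of 3089, 3177 and 2897 genes. Mitochondrial UMIs had medians of 6.04%, 6.82% and 5.39%.

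The collagen threshold fell where few cells lay. The lowest collagen count among the mural-like cells was 20 and the highest under the threshold was 18; 3 cells had 20 to 29, 6 had 10 to 19, and 313 had 50 or more. The second cut divided the collagen-high cells less sharply. Of the mural-like cells 28 had equal UMIs of the actin pair and of the IGFBP5 and WT1 pair, and 18 of these had 0 UMIs of all 4 genes. A further 42 were ahead by 1 or 2 UMIs, and 18 of the other collagen-high cells were behind by 1 or 2. At the far side, 125 mural-like cells were ahead by 10 or more, and 231 had no UMI of IGFBP5 or WT1. The actin pair had a median of 9 UMIs in the mural-like cells (quartiles 3 and 23, highest 186) and of 0 in the others (highest 19).

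**Figure D1:**
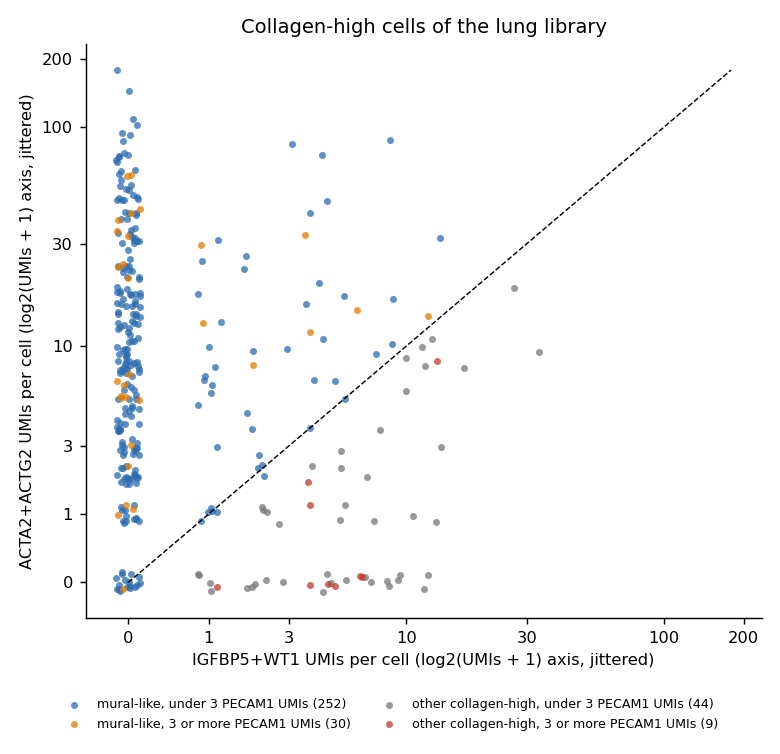
Each point is 1 collagen-high cell, by UMIs of IGFBP5 plus WT1 and of ACTA2 plus ACTG2; cells on or above the dashed line are the mural-like cells. Colours separate cells with 3 or more PECAM1 UMIs.

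The 3 markers that had no part in choosing the cells were all counted in the group. The platelet-derived growth factor receptor PDGFRB stood at 150.2 CPM (137 to 164), 74.6 (54.8 to 99.3) and 0.855, from 484, 47 and 44 UMIs. The proteoglycan CSPG4 stood at 189 (175 to 205), 95.3 (72.7 to 123) and 0.350, and the collagen VI chain COL6A1 at 861 (829 to 894), 418 (369 to 471) and 2.55. All 3 genes set the mural-like cells apart from endothelium by far more than from the other collagen-high cells. Over the latter the ratios were 2.01 (1.49 to 2.78) for PDGFRB, 1.99 (1.52 to 2.64) for CSPG4 and 2.06 (1.82 to 2.35) for COL6A1, so each lay at the 2-fold line and 2 of the 3 passed it. With every cell thinned to 5000 UMIs, at least 1 UMI was seen in 48.1%, 32.0% and 0.348% of cells for PDGFRB, and in 63.2%, 44.0% and 0.225% for CSPG4. Unthinned, the mural-like shares were 75.9% and 84.4%. Thinning left out 16, 3 and 279 cells that were shallower than 5000 UMIs.

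The actins and collagens used for the choice describe it and are not separate findings. ACTA2 was at 1356, 176 and 4.63 CPM and ACTG2 at 238, 4.76 and 0.447, the second value from 3 UMIs. ACTA2 was detected in 85.5% of mural-like cells (75.6% thinned), so the label covers cells in which no ACTA2 was counted. COL1A1 was at 4909, 7286 and 12.8 and COL1A2 at 5514, 7364 and 12.8. Free RNA in the droplets was not modelled. Endothelial cells, a class not known for ACTA2, had an ACTA2 UMI in 1.96% of thinned cells, at a median depth of 9456 UMIs against 10658.5 in the mural-like cells.

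**Figure D2:**
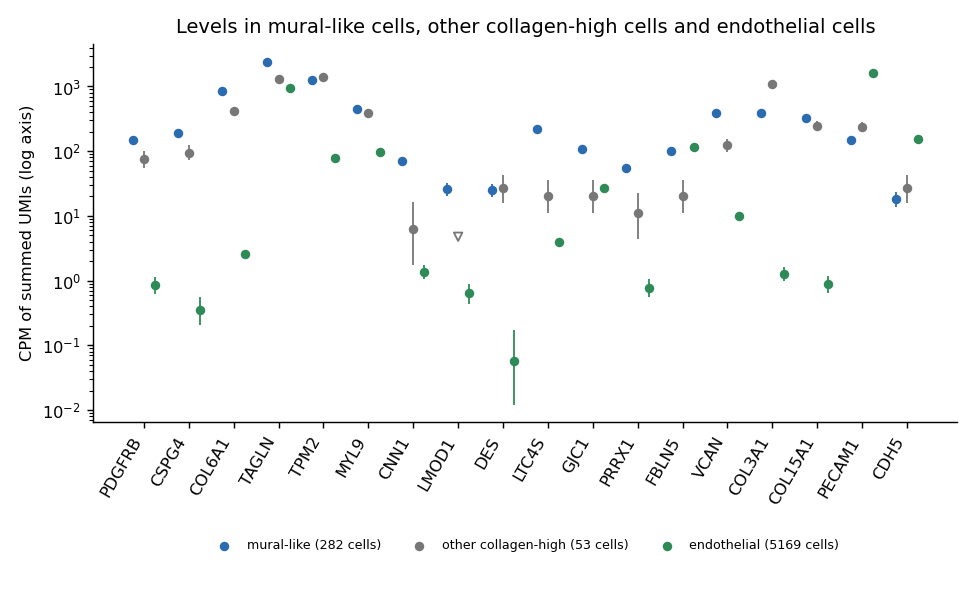
Levels of markers and of genes that differed between the groups, with intervals for counting error. The open triangle is the limit of 3 counts for LMOD1, which had no UMI in the other collagen-high cells.

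Across all genes, the mural-like cells stood much closer to the other collagen-high cells than to endothelium. Of 5384 genes with a mean of at least 20 CPM, 97 were at least 2-fold higher than in the other collagen-high cells (1.80%) and 67 lower (1.24%). Against endothelial cells 292 of 5529 were higher (5.28%) and 450 lower (8.14%). The median log2 ratio of all these genes was 0.05 and −0.00. The 7 rule genes and the mitochondrial genes took no part in these counts. The counts of each list below stand beside these shares of all genes, and no list was tested. A gene near 0 in one group passes the floor only by its level in the other, so its direction is fixed by the filter. List counts in either comparison are descriptions for such genes. Both counts against the other collagen-high cells depended on the setting. Without cells of 3 or more PECAM1 UMIs, 150 genes were higher and 108 lower. The lower count was 107 without the deepest cells and 137 with the mean over cells.

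Pericyte genes were present in part. Of 16 on the list, 4 passed the floor against endothelial cells and were higher: PDGFRB, CSPG4, the aminopeptidase ANPEP and the transcription factor FOXS1. The first 3 are near 0 in endothelium and passed the floor only by their level in the mural-like cells, so the filter allowed no other direction for them. Against the other collagen-high cells 1 of 4 was higher, PDGFRB, with a median log2 of 0.62. Without cells of 3 or more PECAM1 UMIs 1 of 5 was higher, CSPG4 and not PDGFRB, with a median log2 of 0.23. ANPEP was at 61.1, 54.0 and 0.525 CPM and FOXS1 at 213, 178 and 15.8. Several genes used to recognise pericytes in tissue were close to absent. RGS5, a regulator of G-protein signalling, had 1 UMI in the 282 cells, the channel genes KCNJ8 and ABCC9 had 3 and 4, NDUFA4L2 had 1, and HIGD1B, LAMC3 and GJA4 had none. The receptor NOTCH3 was at 7.76 and 7.94 CPM in the 2 collagen-high groups. The summed list reached 656, 446 and 39.5 CPM, with a median cell at 614 among mural-like cells and 0 among endothelial cells.

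Smooth muscle genes were present in part. TAGLN, which cross-links actin, was at 2408 (2355 to 2463), 1307 and 959 CPM, a ratio of 1.84 (1.71 to 1.98) over the other collagen-high cells. The tropomyosin TPM2 (1249, 1385 and 79.9) and the myosin light chain MYL9 (443, 395 and 96.5) were shared by both collagen-high groups and low in endothelium. CNN1, calponin, which slows actomyosin, was the gene of this list that was past 2-fold above the floor between the collagen-high groups: 70.4 CPM from 227 UMIs against 6.35 from 4, log2 3.47 (interval of the ratio 4.27 to 41.0). CNN1 passed the floor only by its level in the mural-like cells, so the filter allowed no other direction for it. It was counted in 42.6% of mural-like cells (25.9% thinned). Under the floor, the actin nucleator LMOD1 had 83 UMIs, or 25.8 CPM, against none in the other collagen-high cells, at least 5.41-fold. The muscle filament DES was at 24.8 and 27.0, and at 0.0583 in endothelium; within the mural-like cells it was at 74.9 against 10.4 CPM, sub-cluster 2 (below) against the rest. MYH11, the smooth muscle myosin heavy chain, had 1 UMI, PLN and SYNPO2 had 1 each, the coactivator MYOCD had 4, and the channel subunit KCNMB1 had none.

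As a whole the smooth muscle list separated the mural-like cells from endothelium more than from their neighbours. Against endothelial cells 6 of 16 genes were higher and 0 lower (median log2 0.45), beside 5.28% and 8.14% of all genes: TAGLN, CNN1, TPM2, MYL9, the cytoskeletal SMTN (60.2 against 23.4) and the actin cross-linker FLNA (1346 against 508). Against the other collagen-high cells 1 of 17 was higher and 0 lower (median log2 0.18), beside 1.80% and 1.24%. Without the rule genes ACTA2 and ACTG2, the summed list was at 11931, 10234 and 6730.5 CPM, and 1 of these 29 genes had no UMI in the mural-like cells.

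Within the chosen cells, CNN1, TAGLN and LMOD1 were higher where ACTA2 was higher, and the surface markers were not. Among the 252 cells with fewer than 3 PECAM1 UMIs, 84 had 0 to 2 ACTA2 UMIs, 69 had 3 to 9, 59 had 10 to 29 and 40 had 30 or more. The rule had removed cells with little ACTA2 that carried IGFBP5 or WT1, so the low bands are cut short by the choice of cells. Median depths were 9713, 10237, 10335 and 13186.5 UMIs. Along these 4 bands CNN1 went 43.1, 54.0, 85.5 and 132, TAGLN 1817, 2318, 2669 and 3685 and LMOD1 17.0, 17.6, 35.8 and 48.4 CPM. Surface markers and collagen I were not higher with ACTA2. PDGFRB was at 178, 161, 165 and 114, CSPG4 at 212, 219, 202 and 179, COL1A1 at 5258, 5552, 5135 and 5043 and the proteoglycan VCAN at 429, 431, 434 and 438. Other genes also differed along the bands: the matrix protein POSTN went 498, 966, 1261 and 1418, the growth factor TGFB3 48.4, 36.5, 85.5 and 109.9 and DES 2.61, 18.9, 34.2 and 68.9, the first from 2 UMIs. The rule genes IGFBP5 and WT1 went 20.9, 33.8, 56.0 and 33.5, and 6.54, 14.9, 31.1 and 11.2. Chosen cells with more ACTA2 had more of some contractile genes, POSTN and TGFB3. CSPG4 and COL1A1 were similar, and PDGFRB was lower in the top band. How far the choice of cells set these differences was not tested.

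**Figure D3:**
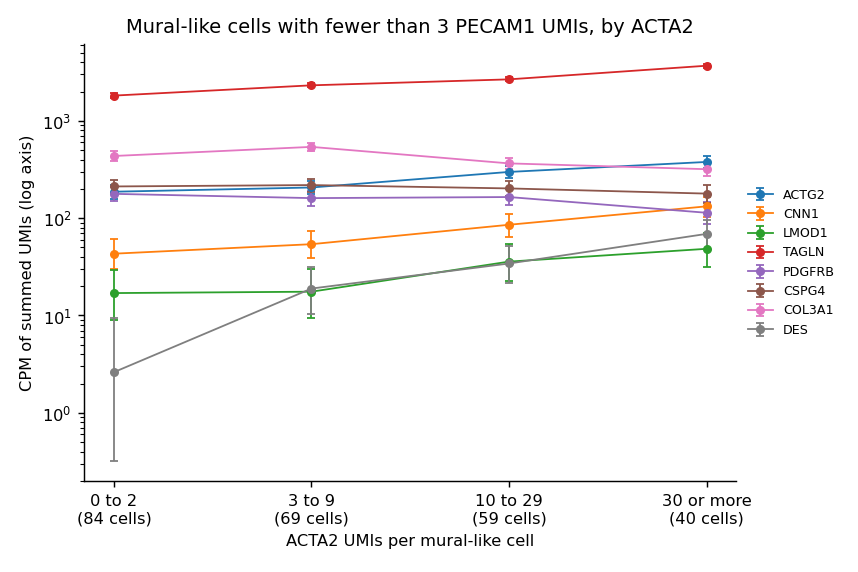
Contractile genes, surface markers and COL3A1 in mural-like cells with fewer than 3 PECAM1 UMIs, grouped by ACTA2 UMIs. ACTA2 and ACTG2 both belong to the rule, and bars are intervals for counting error.

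Some genes of the smooth muscle list carried the recognition site of serum response factor within 250 bases before their annotated start. CArG boxes (CC, 6 A or T, GG) were searched on both strands in the 250 bases before each annotated gene start in the Sscrofa11.1 genome. They occurred before 5 of 31 smooth muscle genes (16.1%, 5.45% to 33.7%), against 262 of 20638 protein-coding genes (1.27%, 1.12% to 1.43%). None of 15 pericyte genes, 29 collagen genes and 20 endothelial genes had one. ACTA2, ACTG2 and CNN1 had none in this window. The genes with a box that are named here are 3 of the 5. The calponin CNN2, which was past 2-fold in neither comparison, had 1 box, its first base 37 before the start (chr2:77385595-77385844, minus strand). The focal adhesion gene VCL and SRF itself, which encodes serum response factor, had 1 each. A match is a description of the sequence and no binding was measured. The window of CNN2, an actin-binding gene counted in the mural-like cells at 80.4 CPM, follows with its box in capitals.
CNN2: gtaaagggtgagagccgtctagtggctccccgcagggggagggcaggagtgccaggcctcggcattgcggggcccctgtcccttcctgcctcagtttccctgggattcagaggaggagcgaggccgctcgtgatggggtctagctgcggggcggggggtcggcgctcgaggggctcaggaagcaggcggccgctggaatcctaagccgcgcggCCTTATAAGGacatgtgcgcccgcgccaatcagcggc

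Collagen genes differed by type. Against endothelial cells 9 of 11 collagen genes were higher and 1 lower, with the direction fixed by the filter for COL3A1, COL5A3, COL6A1 and COL15A1; against the other collagen-high cells 2 of 13 were higher and 2 lower (median log2 0.28). The collagen VI chains COL6A1 and COL6A2 (35.1, 14.3 and 0.0777 CPM) were the 2 higher ones. COL3A1, the partner of collagen I in soft tissue, was lower, at 386 against 1099 (log2 −1.51) with 1.26 in endothelium, as was the collagen V chain COL5A3 (52.1, 113 and 0.155). As a group the mural-like cells thus had less COL3A1 and more COL6A1 than their collagen-high neighbours. COL6A1 was at log2 0.72, under 2-fold, with the rule on thinned counts. The lower COL3A1 did not hold in the 68 cells of sub-cluster 2 (below), at 1116 CPM against 176 in the other mural-like cells. Basement membrane collagens were high in both: COL15A1 was at 328, 249 and 0.874, COL18A1 at 429, 470.1 and 99.8 and COL4A2 at 375, 291 and 149.5. COL12A1, a linker of collagen fibrils, was lower than in endothelium (75.4 against 241). Without collagen I the list summed to 3247, 3608 and 748; 9 genes had no UMI in the mural-like cells.

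Genes that process collagen differed little between the collagen-high groups. Of this list 0 of 19 were higher and 1 lower than in the other collagen-high cells (median log2 −0.14), the lower one being PCOLCE (13.7 against 36.5), which speeds cleavage of the C-terminal propeptide. Against endothelium 3 of 17 were higher (0.54): the cross-linking oxidase LOXL1 (278, 151 and 20.0), the propeptide protease BMP1 (149.6, 192 and 16.9) and the collagen chaperone SPARC (613, 999 and 171). Basement membrane genes were higher for 1 of 11 against the other collagen-high cells (0.12), the linker NID2 (133, 65.1 and 71.9), and for 4 of 12 against endothelium with 2 lower (0.69). The laminin chain LAMA4 was among the lower ones (66.1 against 169).

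Elastic fibre and small proteoglycan genes differed in both directions. Against the other collagen-high cells 3 of 9 were higher and 3 lower (median log2 0.17); against endothelial cells 7 of 8 were higher, with the direction fixed by the filter for VCAN, FMOD, FBLN2 and EMILIN1. The large proteoglycan VCAN (396, 124 and 9.83), the elastic fibre organiser FBLN5 (100.2, 20.6 and 115) and EMILIN1 (45.3, 22.2 and 5.09) were higher than in the other collagen-high cells. FMOD (161, 348 and 0.738), which binds collagen fibrils, and FBLN2 (41.0, 92.1 and 2.27) were lower, as was MGP (4.03 and 443), an inhibitor of calcification. With the rule on thinned counts FMOD was at log2 −0.96 and MGP at −0.56, both under 2-fold. FMOD was also under it with the mean over cells (−0.97). The MGP value of the other collagen-high cells came from 279 UMIs in 4 of 53 cells, and those under 3 PECAM1 UMIs had 3. Elastin itself, ELN, had no UMI in the mural-like cells.

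Genes of matrix turnover differed in both directions. Among proteases and inhibitors 5 of 9 were higher than in endothelium and 2 lower (median log2 1.74). The higher set held the inhibitors TIMP1 (1337, 926 and 228), TIMP2 (349.7, 309.7 and 70.5) and SERPINE2 (313, 259 and 18.2), the urokinase receptor PLAUR and the protease MMP19; MMP2 (83.2 against 214) and TIMP3 (8.38 against 65.3) were lower. Of the integrins, which hold cells to matrix, 1 of 8 was higher than in the other collagen-high cells (0.22), the collagen receptor subunit ITGA1 (47.5, 9.53 and 13.8). Against endothelium 3 of 8 were higher and 1 lower (0.50), with ITGA8, a subunit found on contractile cells, at 81.0, 52.4 and 0.194. The filter allowed no other direction for ITGA1 against the other collagen-high cells or for ITGA8 against endothelium.

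Genes of fibroblasts and myofibroblasts were present in part. On the fibroblast list 0 of 4 were higher and 2 lower than in the other collagen-high cells (median log2 −0.76), COL3A1 and the surface sialomucin CD34 (45 UMIs against 18; log2 −1.03), of which only COL3A1 stayed lower without cells of 3 or more PECAM1 UMIs; against endothelium 2 of 5 were higher and 3 lower (−2.83, and −4.71 without those cells). The fibroblast receptor PDGFRA had 2 UMIs, and the proteoglycans DCN and LUM had 4 and 3. Markers of tissue fibroblasts were thus present in part, with COL3A1 and the microfibril gene FBN1 (162, 145 and 64.2) higher than in endothelium and FBLN1, CD34 and CFD lower. On the myofibroblast list 4 of 6 were higher than in endothelium, 3 of them with the direction fixed by the filter: POSTN (1010.1, 1282 and 364), the activin chain INHBA (364, 203 and 7.21), the protease ADAM12 (109, 116 and 0.797) and the cadherin CDH11 (79.4, 76.2 and 0.233), the last 3 being those so fixed. Against the other collagen-high cells 0 of 7 were higher and 1 lower (median log2 −0.09), CTHRC1 (17.7 and 54.0). LRRC15 and COMP had no UMI.

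Growth factor pathways gave few differences between the collagen-high groups and more against endothelium. For PDGF 1 of 4 was higher than in the other collagen-high cells (median log2 −0.13), PDGFRB. Without cells of 3 or more PECAM1 UMIs it was 0 of 2 (0.62). Against endothelium 1 of 4 was higher and 2 lower (−0.77), with the ligand PDGFB at 18.6, 28.6 and 98.3. The higher one was PDGFRB, for which the filter allowed no other direction. For Notch 0 of 6 differed from the other collagen-high cells (0.18), and 3 of 6 were higher and 1 lower than in endothelium (0.62). The higher ones were the receptor NOTCH2 (73.5, 66.7 and 17.7), the ligand JAG1 (170.4, 146 and 46.5) and the target HEY2. For the transforming growth factor pathway 3 of 22 were higher than in the other collagen-high cells (0.11), among them the ligand TGFB3 (65.8, 30.2 and 0.505), which was just under 2-fold in 2 alternative settings, and its store LTBP2 (182, 85.8 and 146). Against endothelium the ligands differed, and 4 of 22 were higher and 8 lower (−0.24), with the direction fixed by the filter for TGFB3 and INHBA. TGFB1 was at 247 against 92.3 and TGFB2 at 79.1 against 303, and the receptor TGFBR2 at 77.6 against 252.

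The insulin-like growth factor list was higher for 2 of 7 genes than in the other collagen-high cells (median log2 0.54). They were the binder IGFBP3 (39.4 CPM, 127 UMIs against 7, log2 1.83) and PAPPA (179, 88.9 and 1.96), a protease that cuts such binders. Against endothelium 3 of 7 were higher (0.60). The filter allowed no other direction for IGFBP3 against the other collagen-high cells or for PAPPA against endothelium. Mechanical response genes of YAP and TAZ showed 0 of 10 past 2-fold between the collagen-high groups (0.21). Against endothelium 2 of 12 were higher and 4 lower (−0.10), with the targets CCN2 (594 against 1699.7) and ANKRD1 (458 against 3525) lower and the receptor AXL (134 against 29.9) higher. Receptors and channels of contractile cells were thinly counted: 0 of 3 differed from the other collagen-high cells (−0.06) and 1 of 3 was higher than in endothelium (−0.18), the phosphodiesterase PDE5A (53.4, 55.6 and 25.3). The endothelin receptors EDNRA and EDNRB had no UMI in the mural-like cells, and 10 of the 28 genes on this list had none.

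Among secreted signals to neighbouring cells, ANGPT2 alone was past 2-fold between the collagen-high groups when all their cells were used. ANGPT2, a ligand of the endothelial receptor TIE2, had 131 UMIs in the mural-like cells (40.7 CPM) and none in the other collagen-high cells, at least 8.53-fold, with 1.88 in endothelium. It was the 1 of 11 secreted signals past 2-fold there (median log2 0.41). Without cells of 3 or more PECAM1 UMIs 2 of 9 were, ANGPT2 and VEGFA. ANGPT2 passed the floor only by its level in the mural-like cells, so the filter allowed no other direction for it. Against endothelium 3 of 11 were higher and 5 lower (−0.95): VEGFA (57.1 against 25.8) and the lymphatic growth factor VEGFC (179.7 against 80.5) were higher with ANGPT2, and the neutrophil attractant CXCL8 was lower (171 against 651). Among mesenchymal transcription factors 1 of 11 was higher than in the other collagen-high cells (0.07), the homeobox gene PRRX1 (54.3 CPM; 175 UMIs against 7; log2 2.29). Against endothelium 5 of 12 were higher and 4 lower (0.11), with RUNX1 at 53.7, 61.9 and 2.35 and ZEB2 at 116, 105 and 48.6. The filter allowed no other direction for PRRX1 against the other collagen-high cells or for RUNX1 against endothelium.

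Among genes of at least 50 CPM detected in at least 25% of cells, in the group where they were higher, the largest ratios over the other collagen-high cells, chosen after their values were seen, were led by ENSSSCG00000032383, a gene without a symbol, at 70.8 CPM against 1.59 (228 UMIs against 1; ratio 44.6, 7.92 to 1767). CNN1 followed, and then LTC4S, the synthase of the lipid mediator leukotriene C4, at 224 against 20.6 (ratio 10.9, 6.31 to 20.5). LTC4S was counted in 71.3% of mural-like cells, and after thinning in 56.0% of them, in 4 of 50 other collagen-high cells and in 1.92% of endothelial cells. Others of the 15 largest were the gap junction gene GJC1 (107, 20.6 and 27.1), the stress chaperone CRYAB (86.0 against 23.8), the collagen uptake receptor MRC2 (66.4 against 20.6) and the prostaglandin synthase PTGS2 (68.0 against 22.2). Among the 15 lowest were the protease inhibitor TFPI2 (17.1 against 71.5), the cytoskeletal PDLIM4 (12.7 against 50.8), the desmosome gene PERP (18.6 against 68.3), the chaperone CLU (65.5 against 192) and the adhesion molecule NCAM1 (36.3 against 92.1). The higher genes named here met the limit of 50 CPM only by their level in the mural-like cells. The lower ones except CLU met it only by the other collagen-high cells. The filter allowed no other direction for these genes.

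The largest ratios over endothelial cells were also picked after their values were seen, and no theme among them was tested. For the 15 largest, levels in endothelium ran from 0.155 CPM (COL5A3) to 2.55 CPM (COL6A1), so the filter allowed no other direction for them. CSPG4 led at log2 9.08, followed by ITGA8 (8.70), COL15A1 (8.55), CDH11 (8.41) and COL6A1 (8.40). The heparan sulphate carriers GPC1 and SDC2 (185 against 0.855) and the ligand WNT5B were in the same set. Among the lowest were the transcription factor SOX18 (log2 −4.04), the kinase BMX (−3.85), the guidance receptor ROBO4 (6.52 against 78.9) and the adhesion molecule VCAM1 (−3.43).

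The same rule applied to the aorta library gave the same direction for these genes. With the upper gene limit left out, because only 244 of 953 aorta cells under the mitochondrial limit lay within it, 159 of 953 aorta cells were collagen-high (16.7%, 14.4% to 19.2%) and 158 of these were mural-like. Their median depth was 62610.5 UMIs against 50541 in 399 aorta endothelial cells. The matching lung medians were 10658.5 and 9456. The cuts are numbers of UMIs, so at the aorta depth the limit of 20 collagen UMIs is looser and that of 2 or fewer stricter. The groups of the 2 libraries are thus not equal selections. Of 5714 genes 292 were at least 2-fold higher than in aorta endothelial cells (5.11%) and 499 lower (8.73%). All 15 leading higher genes and all 15 leading lower genes of the lung comparison were past 2-fold the same way in the aorta. The rule set the same collagen and PECAM1 contrast in both libraries, so this is a description and no separate support. CSPG4 had log2 8.76, PDGFRB 5.96, COL6A1 8.79 and SOX18 −3.58. Sizes differed for COL3A1, at log2 2.31 against 8.26 in the lung, with 75.8 CPM in aorta endothelial cells. COL5A3 was at 14.0 CPM in the aorta mural-like cells. Of 283 list genes compared in both libraries, 0 passed 2-fold in opposite directions, with no share of all genes beside this count. The barcodes of the 2 libraries shared 5 sequences.

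Endothelial markers were counted in the mural-like cells at a reduced level. Of 19 on the list 18 had at least 1 UMI and VWF, which encodes von Willebrand factor, had none. Without PECAM1, on which the endothelial cells were selected, the summed list was at 1418 (1377 to 1459.6), 1485 and 6831 CPM, with median cells at 937 and 6691. CAV1, a caveolar coat gene not restricted to endothelium, was the largest part (743 against 1278). The junction cadherin CDH5 was at 18.3 against 157, and PECAM1, a contrast set by the rule, at 148 against 1600.5, while the growth factor receptor KDR had 1 UMI. Against endothelium 1 of 14 was higher, the VEGF receptor FLT1 (49.3, 36.5 and 21.4), and 12 lower (median log2 −2.92, and −4.72 for the mural-like cells under 3 PECAM1 UMIs); against the other collagen-high cells 0 of 10 differed (−0.28).

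Endothelial transcripts were at a higher level in the cells with more PECAM1. PECAM1 had 0 UMIs in 180 mural-like cells, 1 or 2 in 72 and 3 or more in 30 (10.6%, 7.29% to 14.8%); of the other collagen-high cells 9 of 53 had 3 or more (17.0%, 8.07% to 29.8%). The 30 cells were deeper, with medians of 17943.5 UMIs and 4224 genes against 10439.5 and 3043 in the other 252. Their endothelial list summed without PECAM1 was at 3549.7 CPM against 991, CDH5 at 87.5 against 4.47 and VCAM1 at 1266 against 106. FLT1 did not follow them, at 41.0 against 51.0. No doublet caller was applied, and whether these 30 were single cells was not tested. Without collagen-high cells of 3 or more PECAM1 UMIs, LTC4S was at 248 against 15.3, CNN1 at 74.1 against 8.74 and COL3A1 at 424 against 1223.

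Genes of other cell classes were low in the mural-like cells. Immune genes summed to 41.0, 77.8 and 359 CPM, mesothelial genes without the rule gene WT1 to 21.4, 42.9 and 26.7, epithelial genes to 1.55, lymphatic genes to 7.14 and Schwann and neural genes to 4.03 in the mural-like cells. Median cells of the mural-like group were at 0 for immune, 0 for mesothelial, 0 for epithelial, 0 for lymphatic and 0 for neural genes. For the last 4 lists no gene was abundant enough to compare. The immune list had 1, LAPTM5, a lysosomal gene of leukocytes, lower than in both groups (29.5, 71.5 and 350.1). Against the other collagen-high cells LAPTM5 was under 2-fold without the gene limit (log2 −0.66) and with the rule on thinned counts (−0.61), and its level in the 30 mural-like cells with 3 or more PECAM1 UMIs was 153 CPM. The lipofibroblast list also had 1, the lipid droplet coat PLIN2 (54.9, 41.3 and 13.2), past 2-fold against endothelium only.

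Genes of the cell cycle hardly separated the 3 groups. S phase genes were higher for 1 of 13 than in the other collagen-high cells (median log2 0.36), the replication helicase MCM2 (38.2, 14.3 and 32.6), and 0 of 15 differed from endothelium (0.05). G2 and M phase genes showed 0 of 16 and 0 of 18 past 2-fold (0.15 and −0.27), with the topoisomerase TOP2A at 169, 130.2 and 208. Arrest and p53 target genes showed 0 of 5 against the other collagen-high cells (−0.05) and 1 of 6 lower than in endothelium (−0.11), the stress gene GADD45B (14.6 against 42.9). No cell cycle list thus set the mural-like cells apart from endothelium. Interferon genes were lower for 2 of 6 than in the other collagen-high cells (−0.66), IFIT1 (36.6, 77.8 and 67.8) and OAS2 (20.5, 41.3 and 23.2). Only OAS2 stayed lower without cells of 3 or more PECAM1 UMIs. Immediate early genes differed for 0 of 5 and, against endothelium, for 1 higher and 1 lower of 5 (0.12 and −0.90), the phosphatase DUSP1 (290.5 against 128) and the transcription factor EGR1 (27.6 against 59.5).

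Clustering of the mural-like cells alone gave 4 groups of 161, 68, 26 and 27 cells (57.1%, 24.1%, 9.22% and 9.57%). Their genes describe groups that were made from the same counts. Sub-cluster 1 had more LTC4S (309 against 124), ACTG2 (322 against 138), CNN1 (95.1 against 41.3) and ANGPT2 (56.1 against 22.4) than the other mural-like cells. Sub-cluster 2 had more COL3A1 (1116 against 176) and DES (74.9 against 10.4), and more of the rule genes WT1 (16.3-fold over the other mural-like cells) and IGFBP5 (107 against 12.8). An IGFBP5 or WT1 UMI was present in 37 of its 68 cells, so cells with some of either gene gathered there. Its COL3A1, PERP (63.8 CPM) and DPYSL3 (121) were near the other collagen-high cells (1099, 68.3 and 110). The fibroblast list without the rule genes was also near them, at 1393 against 1348 CPM. The 3 markers outside the rule were not, and summed to 1203 CPM against 588. Sub-cluster 3 had interferon genes, ISG15 at 2455 against 264 and IFIT1 at 259 against 15.6. Sub-cluster 4 had PECAM1 (802 against 34.6), CDH5 (98.4 against 4.37) and LAPTM5 (172 against 4.74), a median of 18009 UMIs, and 26 of its 27 cells had 3 or more PECAM1 UMIs. At a resolution of 0.3 the sizes were 192, 37, 26 and 27, with sub-clusters 3 and 4 unchanged; at 0.8 there were 6, of 102, 12, 41, 70, 30 and 27 cells.

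**Figure D4:**
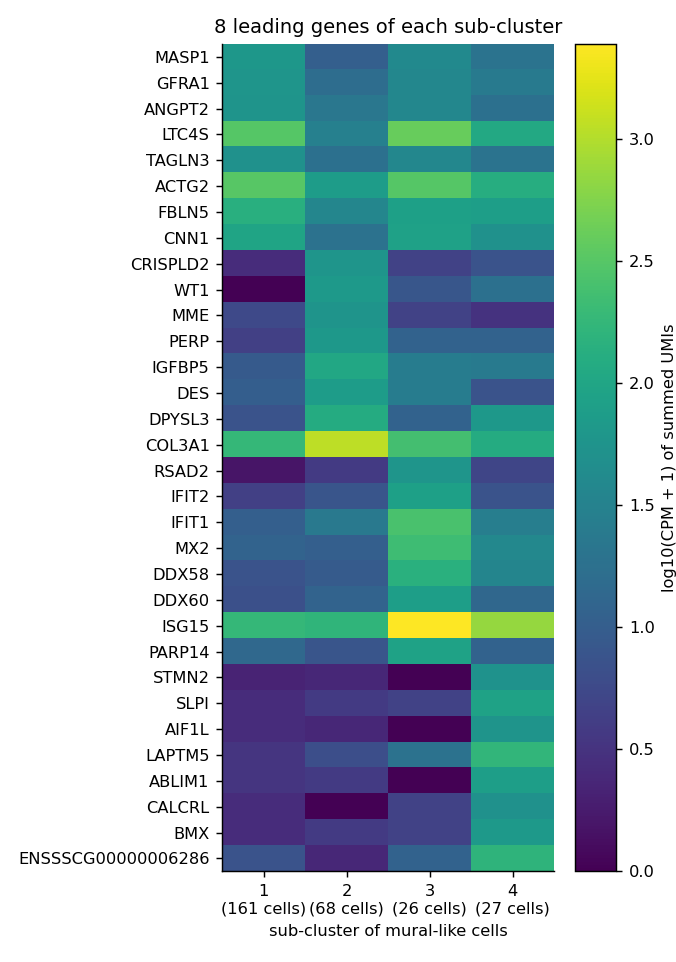
Leading genes of each sub-cluster of the mural-like cells, as levels of the summed UMIs. Numbers of cells are given under each column.

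The values come from 1 lung library and 1 aorta library, so differences between cultures or animals could not be measured. The cells were grown in serum, which the lists of tissue markers do not allow for. Contrasts with the other collagen-high cells rest on 53 cells and on a cut near which cells were common. Ambient RNA and doublets were not removed. The name mural-like reflects the 5 markers; several markers of pericytes and of smooth muscle, such as RGS5 and MYH11, were close to absent while CNN1, LMOD1 and DES were counted, and the origin of the cells was not tested.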

How the data were processed

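Cultured cells from 1 pig lung and 1 pig aorta were profiled as 1 single-cell library each. According to the submitters' processing notes, Cell Ranger 3.0.2 assigned reads to the Ensembl Sscrofa11.1 annotation, and the authors deposited the resulting UMI count of each gene and cell, unfiltered and not normalised. The matrices hold 22804 features, 6774 of them without a symbol; 5 list genes carried older symbols and were matched by identifier, and 18 list genes were not among the features.

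Cells with more than 200 and fewer than 5000 genes were analysed if 13 mitochondrial genes held less than 30% of their UMIs. The rule for the mural-like cells and the gene lists were chosen with earlier results of these data known. UMIs were summed over each group and scaled to 1000000. Genes named in the report are those on 31 lists of markers and pathways fixed with those results known, and the 15 genes with the largest and smallest ratios among those of at least 50 CPM detected in at least 25% of cells in the group where they were higher. A gene was compared if its mean over the 2 groups was at least 20 CPM, and differed if the ratio was at least 2; the 7 rule genes and the 13 mitochondrial genes took no part. No test was run, because each tissue has 1 library. Intervals are exact Poisson or Clopper-Pearson intervals at 95% and cover counting error only; a count of 0 was set to a limit of 3. Shares of cells were also computed on cells thinned to 5000 UMIs. Mural-like cells were sub-clustered with Leiden (1000 variable genes, 15 components, 15 neighbours, resolution 0.5). CArG boxes were searched in the genome of the same build. No doublet caller and no correction for free RNA was applied.

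Alternatives were collagen thresholds of 10 and 50 UMIs, a ratio of 2 at the second cut, no upper gene limit, a mitochondrial limit of 15%, 12 mitochondrial genes without ND1, the rule on thinned counts, collagen-high cells with PECAM1 left out, the deepest 10% of cells left out, the mean over cells, floors of 50 CPM or 10 UMIs, resolutions of 0.3 and 0.8, and thinning to 3000 UMIs. Median depth was 9326 UMIs per cell in the lung and 45594 in the aorta library. Tools were Python 3.11.15, numpy 2.4.6, scipy 1.17.1, pandas 2.3.3, scanpy 1.11.5 and matplotlib 3.10.9; the counting code was checked on simulated data.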

Additional observations from a re-analysis of the deposited data

How the results depend on the processing

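Of the 226 values on the main comparisons (sizes of the groups, all genes, and the smooth muscle, collagen and endothelial lists), 199 kept their side under the alternatives and 27 moved. Of the other values 2533 were kept, 240 moved and 1 reversed. Ratios were followed under the alternatives for 71 genes, not for every gene named here, and depended on the comparison. Against endothelial cells all 61 results past 2-fold among these genes stayed past it under every alternative (610 values). Against the other collagen-high cells 31 of 46 did, and 15 were lost under at least 1 (432 of 460 values stayed). Those lost included PDGFRB, COL6A1, TGFB3, COL5A3, FMOD, MGP, LAPTM5, SOX18, SDC2, NIPA2 and SERPINF1.

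With a ratio of 2 at the second cut, the mural-like cells were 79.1% of collagen-high cells, 2 of 17 smooth muscle genes were higher than in the other collagen-high cells, and 1 of 13 collagens was lower. Without the upper gene limit, CADM1, which was under the floor, had a log2 ratio of 0.023 against the other collagen-high cells; the cause was not tested. With the rule on thinned counts, 0 of 13 collagens were higher than in the other collagen-high cells, with COL6A1 at log2 0.72 and MGP at −0.56; the cause was not tested. PDGFRB, at the 2-fold line against the other collagen-high cells, fell under it in 5 settings.

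Without collagen-high cells of 3 or more PECAM1 UMIs, 150 genes were higher and 108 lower of 5351 against the other collagen-high cells, with 2 of 17 smooth muscle genes and 1 of 4 endothelial genes higher. Without the deepest cells, 107 genes were lower in that comparison, and with the mean over cells 137. The cause was not tested for these.

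A floor of 50 CPM keeps fewer genes. Of 2797 kept in the comparison with the other collagen-high cells 27 were higher and 18 lower, with 0 of 15 smooth muscle genes and 1 of 11 collagens higher. Of 2891 kept against endothelial cells 137 were higher and 229 lower, with 0 of 11 endothelial genes higher. A floor of 10 UMIs keeps more genes. Of 9859 kept against the other collagen-high cells 685 were higher and 424 lower, with 2 smooth muscle genes higher and 1 lower of 22, and 1 of 14 endothelial genes lower. Of 12758 kept against endothelial cells 1634 were higher and 1549 lower, with 10 smooth muscle genes higher and 2 lower of 26, and 2 of 18 endothelial genes higher. Depth limits genes under the floor: with 629672 UMIs in the other collagen-high cells, 3 counts are 4.76 CPM.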
